A study of Mus musculus with 4 samples.

Results

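RNA of the injured spinal cord of male mice that carry human APOE3 was compared between 21 and 7 days after a contusion (dpi). The members were the 10830 genes listed at both times with a mean of at least 1 FPKM (fragments counted relative to transcript length and sequencing depth), out of 14715 symbols listed at either time. For each, the base 2 logarithm of the ratio of FPKM plus 1 at 21 dpi to FPKM plus 1 at 7 dpi was taken, and the median over the members, 0.0888, was subtracted. The result is called the centred log2 below, with positive values for genes higher at 21 dpi.

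The study asked how the human apolipoprotein E isoforms relate to recovery from spinal cord injury. Both groups were male homozygous-replacement animals of the Human ApoE3 Targeted Replacement line, in which the human APOE3 sequence stands in the place of the mouse gene, and they were 3 to 5 months old when they were assigned to surgery. Under 3% isoflurane each received an incomplete injury, a contusion of 50 kdyne to the thoracic cord, and a segment of about 4 mm around the lesion was taken 7 or 21 days later. The animals of a group, 3 by the methods, were combined by the authors into 1 value per gene, so no spread between mice can be given, no difference here has a replicate check, and no test was run. The number of reads behind a value is unknown. No uninjured cord and no sham-operated group was analysed here, so a value at 21 dpi cannot be set against normal tissue.

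Several features of the table bear on every value. The columns are numbered in a way that would give the values used here to ApoE4, while the name of the comparison and the paper's reading give them to ApoE3, and that reading was used. Each time point is a comparison of the genotypes that the authors ran and normalised on its own, so levels at 7 and 21 dpi come from separate runs as well as from separate mice, and the time, the mice and the run cannot be told apart. The human transgene is not represented under its own name. Mouse Apoe, the symbol under which its reads would be counted, was listed at 21 dpi alone, at 843 FPKM in ApoE3 and 1311 FPKM in ApoE4, which does not tell the isoforms apart.

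After a contusion, the first week brings blood-derived macrophages and activated microglia into the lesion, where they take up myelin and dead cells, while fibroblasts and vessel-associated cells divide and lay down a collagen-rich core. Astrocytes around the core enlarge and form a border. In the following weeks the tissue is remodelled, debris is cleared in part, and surviving axons, synapses and new myelin make up the remaining tissue.

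In the ApoE3 lesion, 481 of the 10830 genes (4.44%) were at least 2-fold higher at 21 dpi relative to the median gene, and 921 (8.50%) were at least 2-fold lower. Those percentages are the background against which each list below is to be read. Without centring, the counts were 660 higher and 785 lower, so that 45.7% of the called genes were higher in place of 34.3%. Large differences were more frequent on the lower side than on the higher side. At least 4-fold, 168 genes were lower and 13 were higher. The middle of the distribution was narrow, with quartiles of -0.44 and 0.41 and 5th and 95th percentiles of -1.28 and 0.97. The median level of a member was 30.2 FPKM at 7 dpi and 29.6 FPKM at 21 dpi, and the upper quartile 81.2 and 88.6 FPKM.

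A few transcripts took a large part of the total. The 10 most abundant members at each time held 15.2% of the summed FPKM at 7 dpi and 19.4% at 21 dpi. Mbp, which codes for myelin basic protein, was the most abundant, at 120571 and 201348 FPKM. By the mean of the 2 times, the iron-storage gene Fth1 followed at 8250.0 FPKM at 7 dpi and 14589.8 FPKM at 21 dpi. Gfap, for the intermediate filament of astrocytes, stood at 12395 FPKM at 7 dpi and 8201 FPKM at 21 dpi, and Mobp, for another myelin protein, at 5869 FPKM at 7 dpi and 8177 FPKM at 21 dpi. All 4 kept within 2-fold of the median gene. Selenop, which codes for the selenium carrier selenoprotein P, was among the 10 with the highest means and was at 7527 FPKM at 7 dpi and 3792 FPKM at 21 dpi (centred log2 -1.08).

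**Figure D1:**
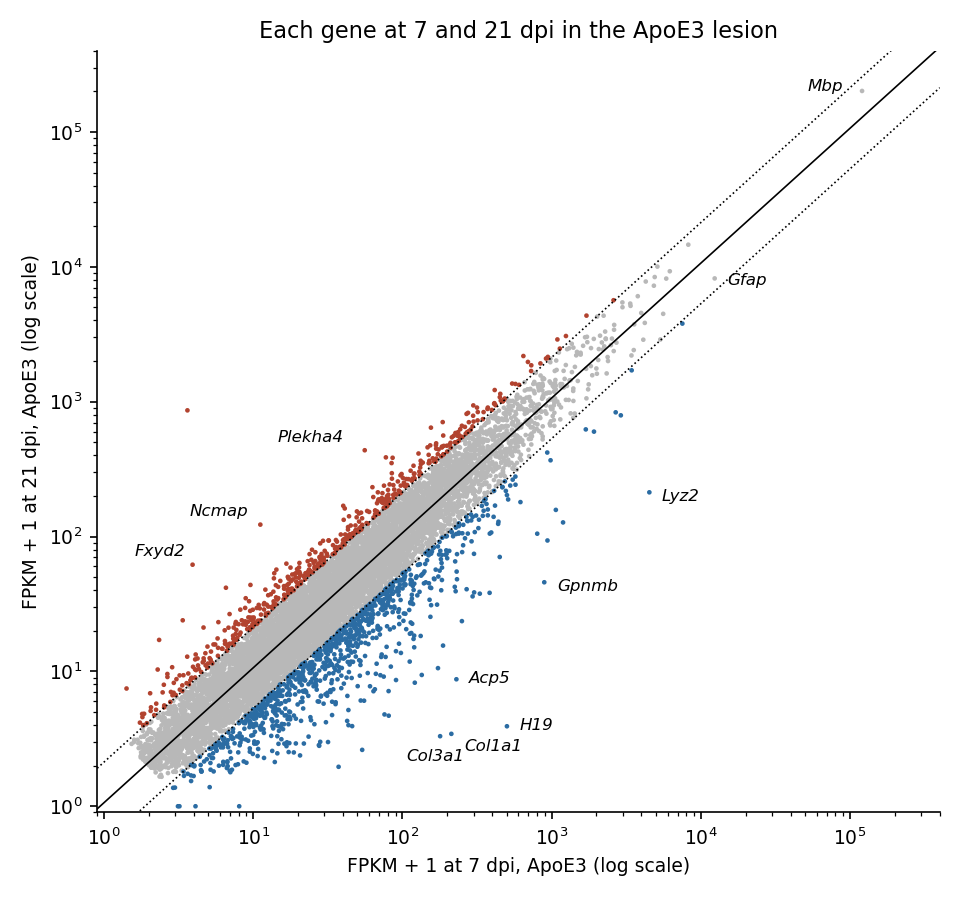
FPKM plus 1 at 7 dpi (horizontal) and 21 dpi (vertical) in the ApoE3 lesion, both on log scales, for 10830 genes. The solid line marks the median gene and the dotted lines 2-fold to either side, with 481 genes above (red) and 921 below (blue).

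The table lists a gene at a time only where the authors' comparison of genotypes could be made, so membership depends on both runs. At 7 dpi 14125 symbols were listed and at 21 dpi 11472. Of these, 10876 were listed at both times and 46 fell under the minimum of 1 FPKM. Another 3246 were listed at 7 dpi only, with a median of 48.4 FPKM, and 593 at 21 dpi only, with a median of 2.04 FPKM. Genes listed at 7 dpi alone were thus not mainly weak ones, since 1041 of them had at least 100 FPKM. Among them were Gnas, for a G-protein subunit, at 12214 FPKM, Map4, for a microtubule protein, at 10948 FPKM, and H2-K1, for a classical class I molecule, at 4719 FPKM. The 21 dpi table alone held Psap, for the lysosomal activator prosaposin, at 5827 FPKM and App, for the amyloid precursor protein, at 4643 FPKM. Absence from a list was not read as absence of the transcript, and no fold was computed for these genes.

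At the minimum of 1 FPKM the values were as follows. Just inside it, the long noncoding transcript 4833418N02Rik had 1.22 FPKM at 7 dpi and 0.783 FPKM at 21 dpi, a mean of 1.001, and Smarca5-ps had 1.07 FPKM at 7 dpi and 0.937 FPKM at 21 dpi, a mean of 1.004. Just outside, Stoml3 had 0.595 FPKM at 7 dpi and 1.40 FPKM at 21 dpi, a mean of 0.997, and 5033406O09Rik had 1.16 FPKM at 7 dpi and 0.837 FPKM at 21 dpi, a mean of 0.996. Genes under the minimum would add little to the counts, which were 484 higher and 926 lower with no minimum, against 481 and 921. No fold is given for the 4 members that were at 0 FPKM at 21 dpi, a microRNA and 3 predicted genes.

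Among protein-coding genes with a mean of at least 5 FPKM, the 15 with the lowest centred log2 included collagens and genes that macrophages express. Col1a1, for the main chain of fibrillar type I collagen, was at 212 FPKM at 7 dpi and 2.44 FPKM at 21 dpi (centred log2 -6.04). Col3a1, for type III collagen, was at 178 FPKM at 7 dpi and 2.31 FPKM at 21 dpi (centred log2 -5.85), and Col1a2 and Col6a3, for further collagen chains, had values of -3.93 and -3.68. Collagen transcripts that ranged from 134 to 212 FPKM at 7 dpi were thus between 2.31 and 14.5 FPKM at 21 dpi.

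Some of the rest were abundant at 7 dpi. Lyz2, for the lysozyme of macrophages and granulocytes, was at 4522 FPKM at 7 dpi and 212 FPKM at 21 dpi (centred log2 -4.50). Gpnmb, a glycoprotein of lipid-laden macrophages, was at 892 FPKM at 7 dpi and 44.8 FPKM at 21 dpi (centred log2 -4.37). Acp5, for tartrate-resistant acid phosphatase, was at 229 FPKM at 7 dpi and 7.74 FPKM at 21 dpi (centred log2 -4.81). All 3 were thus lower by far more than 4-fold. The others were Atp6v0d2, a subunit of the vacuolar proton pump (-4.45), Cd5l, a secreted macrophage protein (-4.34), the folate receptor gene Folr2 (-4.20), the membrane protein gene Ms4a7 (-4.12), a further lysozyme gene, Lyz1 (-4.07), the scavenger receptor gene Msr1 (-3.97), the acute-phase gene Saa3 (-3.64) and Prc1, whose product bundles microtubules during division (-3.59). H19, an imprinted noncoding RNA that is abundant in embryonic tissue, was lower still, at 501 FPKM at 7 dpi and 2.92 FPKM at 21 dpi (centred log2 -7.09). It lies outside the protein-coding set and was chosen after its values were seen.

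The 15 protein-coding genes with the highest centred log2 mostly had smaller folds. Among them were Fxyd2, for a regulator of the sodium pump, at 2.92 FPKM at 7 dpi and 60.8 FPKM at 21 dpi (centred log2 3.89), and Ncmap, for a protein of noncompact peripheral myelin, at 10.2 FPKM at 7 dpi and 122 FPKM at 21 dpi (centred log2 3.37). Plekha4, a gene expressed in peripheral glia among other cells, was at 54.9 FPKM at 7 dpi and 435 FPKM at 21 dpi (centred log2 2.88). Below them stood Tmem79 (2.78), the protease inhibitor gene Serpina3m (2.74), the ciliary genes Ccdc33 (2.58) and Ccdc153 (2.10), C1qtnf4 (2.23), Tdrd6 (2.10), Fxyd3 (2.08), the neuroendocrine proconvertase inhibitor gene Pcsk1n (2.07), Tmem145 (1.99), Art3 (1.96) and the neuronal gene Bex1 (1.90). For several of these the ApoE4 values, computed in the same way, had the opposite sign, namely Plekha4, Tmem79, Serpina3m, Ccdc33 and Fxyd3.

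The gene lists below were written for cell types and processes of the lesion, 52 in number, and 47 of them had at least 5 measured members. A gene is measured here when it is a member, that is, listed at both times with the minimum level. Of all 14715 symbols listed at either time, 3246 were at 7 dpi only and 593 at 21 dpi only. Those numbers are the background for counts of list genes at a single time. In all 691 members stood in a list and 53 of them in more than 1 list. In bulk tissue, fewer cells of a type and less RNA per cell cannot be told apart, and this holds for every list named after a cell.

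**Figure D2:**
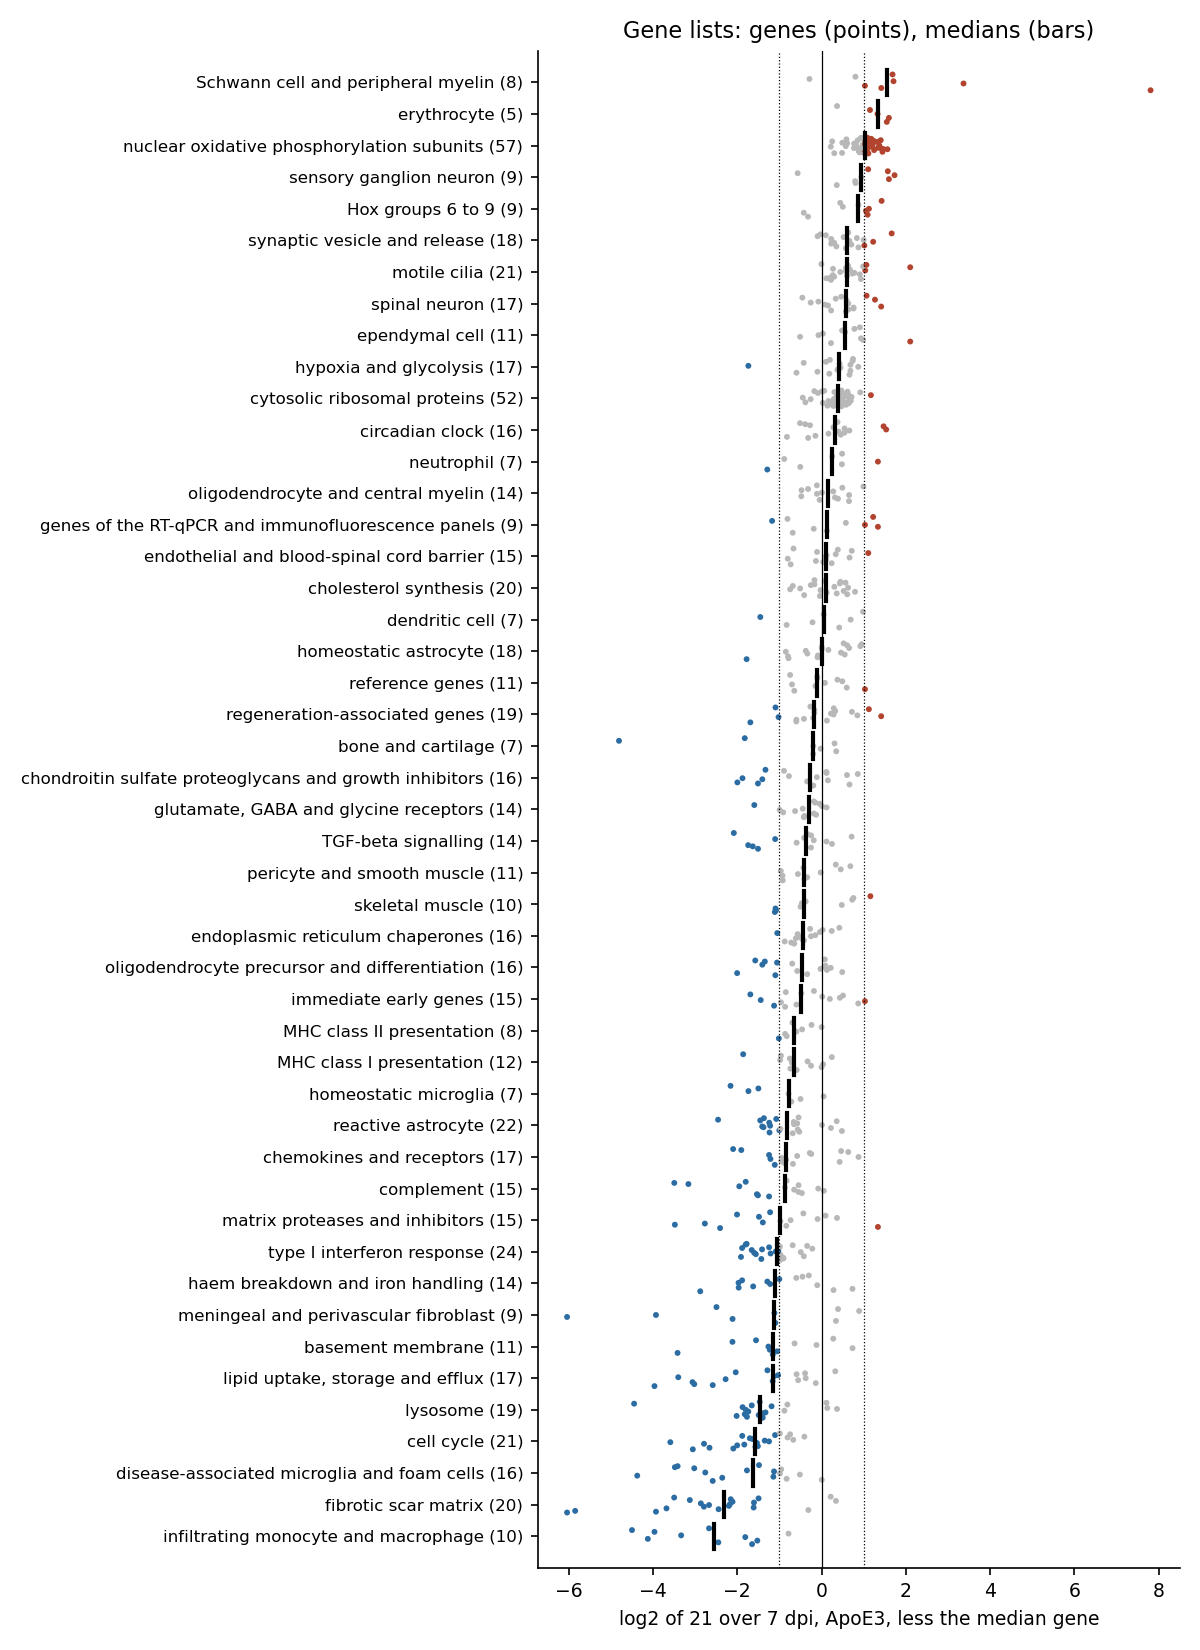
Centred log2 of 21 over 7 dpi in the ApoE3 lesion for the genes of each list with at least 5 measured members (number in brackets). Points are genes, red or blue from 2-fold on, and bars are medians, which run from -2.56 for monocytes and macrophages to 1.55 for Schwann cells.

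Genes of the fibrotic scar matrix had one of the lowest medians. Of 30 genes, 20 were measured, 17 of these were at least 2-fold lower at 21 dpi and 0 higher, with a median of -2.32. Another 7 were listed at 7 dpi only, 1 at 21 dpi only and 2 at neither. The summed level of the measured genes was 1854 FPKM at 7 dpi and 319.6 FPKM at 21 dpi, and that of all genes listed at each time 2126 and 774 FPKM. Bgn, the most abundant, codes for the small proteoglycan biglycan and was at 295 FPKM at 7 dpi and 35.0 FPKM at 21 dpi (centred log2 -3.13). Eln, for elastin, was at 249.6 FPKM at 7 dpi and 22.6 FPKM at 21 dpi, and Postn, for the matricellular protein periostin, at 119 FPKM at 7 dpi and 17.4 FPKM at 21 dpi (centred log2 -2.79). These genes thus shared the direction. The genes of cross-linking enzymes did too, with Lox at 14.8 FPKM at 7 dpi and 2.73 FPKM at 21 dpi and its relative Loxl1 at 16.3 FPKM at 7 dpi and 1.52 FPKM at 21 dpi.

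Members of the list that code for proteoglycans were not alike. Lum, for lumican, was at 8.94 FPKM at 7 dpi and 1.44 FPKM at 21 dpi (centred log2 -2.11), whereas Dcn, for decorin, was at 45.7 FPKM at 7 dpi and 61.9 FPKM at 21 dpi (centred log2 0.34). Dcn was the highest of the list and P4ha2, for a collagen-hydroxylating enzyme, the only other member above 0, at 0.22. Col5a3, for a minor fibrillar chain, had a value of -0.31, which became 0.07 when genes were centred within classes of transcript length. Of the members listed at a single time, Fn1, for fibronectin, was at 454 FPKM at 21 dpi, more than the measured genes together, so the most abundant gene of this list at that time has no fold here. Col6a2 was at 85.6 FPKM and Mfap4, for a microfibril protein, at 42.7 FPKM at 7 dpi.

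The basement membrane list, of collagens, laminins and linkers under endothelium and glia, moved less evenly. Its 11 measured genes of 14 had a median of -1.16, with 7 at least 2-fold lower and 0 higher, 2 listed at 7 dpi only and 1 at 21 dpi only. Col18a1, for the chain that releases endostatin, was at 383 FPKM at 7 dpi and 37.2 FPKM at 21 dpi (centred log2 -3.42). Nid1, for the linker nidogen, was at 20.6 FPKM at 7 dpi and 4.31 FPKM at 21 dpi (centred log2 -2.11), and Col15a1 at 39.5 FPKM at 7 dpi and 18.3 FPKM at 21 dpi (centred log2 -1.16). Agrn, for agrin, was the most abundant and was at 734 FPKM at 7 dpi and 946 FPKM at 21 dpi (centred log2 0.28), and the laminin gene Lama5 had the highest value, 0.73. The list therefore held genes on both sides of 0, and its measured genes summed to 1334 against 1131 FPKM, or 1816 and 1197 FPKM over all genes listed at each time. Col4a1, for the network-forming chain of type IV collagen, was listed at 7 dpi only, at 458 FPKM. The median was -0.84 when centred within length classes, so that it no longer reached 2-fold.

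Of the matrix proteases and their inhibitors, 15 of 19 were measured, 7 were at least 2-fold lower and 1 was higher. The median was -0.98, and it passed 2-fold with a pseudocount of 0.1 or 0.01 (-1.01 with the latter), upper-quartile centring (-1.01), centring by length (-1.22) and the columns read by number (-1.26). The macrophage elastase gene Mmp12 was at 89.6 FPKM at 7 dpi and 7.63 FPKM at 21 dpi (centred log2 -3.48). Mmp14, for a membrane-bound collagenase, was at 89.6 FPKM at 7 dpi and 13.1 FPKM at 21 dpi (centred log2 -2.77), and Mmp2, for a gelatinase, at 39.5 FPKM at 7 dpi and 7.11 FPKM at 21 dpi (centred log2 -2.41). These 3 proteases were thus lower at 21 dpi. Mmp9, for the other gelatinase, went the other way, at 3.65 FPKM at 7 dpi and 11.5 FPKM at 21 dpi (centred log2 1.34). Timp2, for an inhibitor and the most abundant of the list, was at 275 FPKM at 7 dpi and 175 FPKM at 21 dpi (centred log2 -0.74), and Timp1 at 59.1 FPKM at 7 dpi and 31.5 FPKM at 21 dpi (centred log2 -0.98). Listed at 7 dpi only were 3 genes (Mmp3, Mmp8 and Mmp13, none above 6.01 FPKM), and 1 was listed at neither.

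TGF-beta is a growth factor that drives collagen synthesis, and 14 of 18 genes of its pathway were measured, with a median of -0.37, 5 at least 2-fold lower and 0 higher. The ligand gene Tgfb1 was at 20.2 FPKM at 7 dpi and 6.92 FPKM at 21 dpi (centred log2 -1.51). Its receptors Tgfbr1 and Tgfbr2 were at 87.2 against 29.3 FPKM, -1.63, and 67.3 against 20.7 FPKM, -1.74. Ligand and both signalling receptors were thus lower at 21 dpi. Tgfb2 differed less, at 23.6 FPKM at 7 dpi and 21.0 FPKM at 21 dpi, and Inhba, for a related ligand, had the lowest value, -2.08. Of the target genes, Tgfbi was at 30.9 FPKM at 7 dpi and 14.8 FPKM at 21 dpi (centred log2 -1.10), while Ccn2, for connective tissue growth factor, had the highest value of the list, 0.71, from 4.46 FPKM at 7 dpi and 8.51 FPKM at 21 dpi. The latent-binding gene Ltbp3 was the most abundant at 450.0 FPKM at 7 dpi and 381 FPKM at 21 dpi, and 4 genes were listed at 7 dpi only.

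Chondroitin sulfate proteoglycans and other inhibitors of axon growth had a median of -0.27 over 16 of 20 genes, with 5 at least 2-fold lower and 0 higher, and the median was 0.06, of the opposite sign, when centred within length classes. Vcan, for versican, was at 155 FPKM at 7 dpi and 40.5 FPKM at 21 dpi, and Ncan, for neurocan, was at least 2-fold lower as well. Bcan, for brevican, was the most abundant and was at 549 FPKM at 7 dpi and 925 FPKM at 21 dpi (centred log2 0.66). The lecticans therefore stood on both sides of the median gene, and Acan, for aggrecan, was near it. The Nogo receptor gene Rtn4r had the highest value, 0.86, from 2.33 FPKM at 7 dpi and 5.43 FPKM at 21 dpi. 2 genes were listed at 7 dpi only and 2 at neither time.

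Fibroblasts of the meninges and vessels had 9 measured markers of 16, of which 6 were at least 2-fold lower and 0 higher, with a median of -1.12, 5 listed at 7 dpi only and 2 at neither. Mgp, for matrix Gla protein, was the most abundant at 223 FPKM at 7 dpi and 41.4 FPKM at 21 dpi (centred log2 -2.49). Islr was at 103 FPKM at 7 dpi and 50.0 FPKM at 21 dpi (centred log2 -1.12) and Pdgfra, for a platelet-derived growth factor receptor shared with oligodendrocyte precursors, at 85.5 FPKM at 7 dpi and 42.0 FPKM at 21 dpi (centred log2 -1.10). Slc6a13, for a transporter of leptomeningeal cells, had the highest value, 0.89. Col1a1 and Col1a2, which the matrix list shares, gave the lowest values, so the 2 lists are not separate measurements.

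Markers of pericytes and smooth muscle differed less than those of fibroblasts. Of 14, 11 were measured, none reached 2-fold in either direction and the median was -0.41, with 2 listed at 7 dpi only and 1 at 21 dpi only. Pdgfrb, for the receptor that keeps pericytes on vessels, was at 45.8 FPKM at 7 dpi and 25.3 FPKM at 21 dpi (centred log2 -0.92). Rgs5, the most abundant, was at 109 FPKM at 7 dpi and 86.8 FPKM at 21 dpi, and the smooth muscle gene Tagln was lowest at -0.97.

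The list written for monocytes and macrophages that enter from blood gave the lowest median of all lists, -2.56. Whether the cells behind these values came from blood was not tested. Of 18 markers 10 were measured, and 9 were at least 2-fold lower at 21 dpi, with 0 higher. Another 5 were listed at 7 dpi only, 1 at 21 dpi only and 2 at neither. The summed level of the measured markers was 5042 FPKM at 7 dpi and 273 FPKM at 21 dpi, most of it from Lyz2, and 5147 and 727 FPKM over all markers listed at each time, Fn1 among them at 21 dpi. Adgre1, for the F4/80 antigen, was at 111 FPKM at 7 dpi and 10.8 FPKM at 21 dpi (centred log2 -3.33). Ms4a7 was at 172 FPKM at 7 dpi and 9.57 FPKM at 21 dpi and Plac8, of inflammatory monocytes, at 28.6 FPKM at 7 dpi and 4.77 FPKM at 21 dpi (centred log2 -2.45). Cd14, for a co-receptor of bacterial lipopolysaccharide, was the exception, at 20.4 FPKM at 7 dpi and 12.2 FPKM at 21 dpi (centred log2 -0.79). Listed at 7 dpi only were the monocyte genes Ly6c2 at 37.0 FPKM and Ccr2 at 12.7 FPKM.

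Genes of disease-associated microglia and foam cells, the phagocytes filled with lipid droplets, had a median of -1.63. Of 24, 16 were measured, 11 were at least 2-fold lower and 0 higher, 5 were listed at 7 dpi only, 1 at 21 dpi only and 2 at neither. Ctsb, for the protease cathepsin B, was the most abundant at 1923 FPKM at 7 dpi and 599 FPKM at 21 dpi (centred log2 -1.77). Igf1, for insulin-like growth factor 1, was at 938 FPKM at 7 dpi and 92.5 FPKM at 21 dpi (centred log2 -3.42), and Lgals3, for galectin-3, at 448 FPKM at 7 dpi and 69.5 FPKM at 21 dpi (centred log2 -2.76). Clec7a, for a receptor of fungal sugars on activated microglia, was at 231 FPKM at 7 dpi and 47.2 FPKM at 21 dpi (centred log2 -2.36). These genes of phagocytic activation were thus lower together, but not all of the list was. Cd9 was at 299 FPKM at 7 dpi and 222 FPKM at 21 dpi, and Cst7, for a protease inhibitor, hardly differed, at 20.2 FPKM at 7 dpi and 21.6 FPKM at 21 dpi. Trem2 and Cd68 were listed at 7 dpi alone, at 459.8 and 1309 FPKM, and Spp1, for osteopontin, at 21 dpi alone, at 918 FPKM.

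Homeostatic markers of microglia had 7 measured of 15 and a median of -0.78, or -1.03 when centred by length, with 3 at least 2-fold lower and 0 higher, 3 at 7 dpi only, 2 at 21 dpi only and 3 at neither. Csf1r, for the receptor that microglia need to survive, was at 197 FPKM at 7 dpi and 73.4 FPKM at 21 dpi (centred log2 -1.50). Fcrls had the lowest value, -2.16, from 230.0 FPKM at 7 dpi and 54.0 FPKM at 21 dpi. Tmem119, a marker of resident cells, was at 72.8 FPKM at 7 dpi and 46.8 FPKM at 21 dpi (centred log2 -0.72), and the transcription factor gene Sall1 at 47.7 FPKM at 7 dpi and 35.6 FPKM at 21 dpi (centred log2 -0.50). Siglech stood at 112 FPKM at 7 dpi and 123 FPKM at 21 dpi. The resident markers therefore differed less between the times than the markers listed for entering macrophages did, in a comparison of medians that was not tested.

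Lysosomal genes were lower as a group, at a median of -1.47. Of 28, 19 were measured, 14 were at least 2-fold lower and 0 higher, 2 were listed at 7 dpi only, 2 at 21 dpi only and 5 at neither. The measured genes summed to 5375 FPKM at 7 dpi and 2115 FPKM at 21 dpi. Over all genes listed at each time the sums were 6742 and 8201 FPKM, of the opposite direction, because Psap was listed at 21 dpi only. The cathepsin genes Ctsc and Ctsa were at 101 against 25.9 FPKM, -2.02, and 501 against 202 FPKM, -1.40. Lamp2, for a membrane protein of the organelle, was at 572 FPKM at 7 dpi and 241 FPKM at 21 dpi (centred log2 -1.33), and Hexa, for a ganglioside-degrading enzyme, at 231 FPKM at 7 dpi and 73.0 FPKM at 21 dpi (centred log2 -1.74). Gaa, which breaks down glycogen, had the highest value, 0.37. The direction was thus common to proteases, membrane proteins and glycosidases, with Gaa, Neu1 and Mcoln1 above 0.

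Handling of lipid, the cargo of apolipoprotein E, gave a median of -1.16 over 17 of 22 genes, 11 of them at least 2-fold lower and 0 higher. Uptake genes had low values, with Msr1 at 120.1 FPKM at 7 dpi and 7.25 FPKM at 21 dpi and Lpl, for lipoprotein lipase, at 71.1 FPKM at 7 dpi and 11.8 FPKM at 21 dpi (centred log2 -2.58). Plin2, which coats lipid droplets and was the most abundant, was at 800.4 FPKM at 7 dpi and 104 FPKM at 21 dpi (centred log2 -3.02). Soat1, which esterifies cholesterol for storage, was at 181 FPKM at 7 dpi and 38.9 FPKM at 21 dpi (centred log2 -2.28). Export genes followed, with Abca1 at 302 FPKM at 7 dpi and 37.5 FPKM at 21 dpi (centred log2 -3.06) and Abcg1 at 40.1 FPKM at 7 dpi and 18.6 FPKM at 21 dpi (centred log2 -1.16). The genes named so far were at least 2-fold lower, but Lrp1 and Vldlr, for uptake receptors, had values of -0.59 and -0.39 and Plin3, of lipid droplets, -0.14. Apoc1, for an apolipoprotein, had the highest value, 0.33, from 89.9 FPKM at 7 dpi and 120.1 FPKM at 21 dpi. Another 5 genes were listed at 7 dpi only, among them the scavenger receptor gene Cd36 at 1292 FPKM.

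Cholesterol synthesis did not share that direction. Of 24 genes, 20 were measured, none reached 2-fold either way, 11 were above 0 and the median was 0.10, with 4 listed at 7 dpi only. Hmgcs1, for an early step, was at 138 FPKM at 7 dpi and 143 FPKM at 21 dpi, and Dhcr7, for a late step and the most abundant, at 155 FPKM at 7 dpi and 146 FPKM at 21 dpi. Fdps had the highest value, 0.79, and Lss the lowest, -0.75.

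The list of haem breakdown and iron handling had a median of -1.11, with 8 of 14 measured genes (of 20) at least 2-fold lower and 0 higher, 4 at 7 dpi only, 1 at 21 dpi only and 1 at neither. Hmox1, whose product opens the haem ring, was at 65.4 FPKM at 7 dpi and 8.60 FPKM at 21 dpi (centred log2 -2.88). The subunits of ferritin, which stores iron, went apart, since Ftl1 was at 2911 FPKM at 7 dpi and 791 FPKM at 21 dpi (centred log2 -1.97) and Fth1 at 0.73. Slc40a1, for the iron exporter ferroportin, was at 32.2 FPKM at 7 dpi and 10.5 FPKM at 21 dpi (centred log2 -1.62), and Tfrc, for the transferrin receptor, at 48.4 FPKM at 7 dpi and 47.9 FPKM at 21 dpi. The summed level was higher at 21 dpi because Fth1 makes up most of it, so a median and a sum differ in direction here. The median was -0.92 with a minimum of 5 FPKM and -0.98 when centred within length classes, just short of 2-fold.

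Complement, which tags debris and synapses for removal, had 15 measured genes of 18, 7 at least 2-fold lower and 0 higher, and a median of -0.87, or -1.26 with a minimum of 5 FPKM. The genes for the subunits of C1q, made by microglia and macrophages, were at 935 against 419 FPKM, -1.25 (C1qa), 983 against 367 FPKM, -1.51 (C1qb) and 1695 against 622 FPKM, -1.53 (C1qc). The receptor genes C3ar1 and C5ar1 had lower values, -3.16 and -3.49. C3 itself was at 216 FPKM at 7 dpi and 146 FPKM at 21 dpi (centred log2 -0.65), and C4b, the most abundant, was nearly level at 2721 FPKM at 7 dpi and 2739 FPKM at 21 dpi. C5ar1 and C3ar1 thus differed most, and C2, at 0.05, and C4b least. Listed at 7 dpi only were 2 genes and at neither time 1.

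Presentation of antigen by MHC class I had a median of -0.65, with 1 of 12 measured genes (of 17) at least 2-fold lower and 0 higher. B2m, for the shared light chain, was at 469.9 FPKM at 7 dpi and 307 FPKM at 21 dpi (centred log2 -0.70), and H2-D1 at 206 FPKM at 7 dpi and 145 FPKM at 21 dpi (centred log2 -0.59). Erap1, which trims peptides, was lowest at -1.86. 5 genes, H2-K1 among them, were listed at 7 dpi only. For class II, 8 of 12 genes were measured, 1 was at least 2-fold lower and 0 higher, the median was -0.64 and 4 were listed at neither time. Cd74, for the invariant chain, was at 72.3 FPKM at 7 dpi and 47.2 FPKM at 21 dpi (centred log2 -0.69), and H2-Aa at 36.8 FPKM at 7 dpi and 18.9 FPKM at 21 dpi (centred log2 -1.01). Both medians were below 0, but the shares of genes called lower were near that of all genes.

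Chemokines and their receptors gave a median of -0.84 over 17 of 29 genes, 5 at least 2-fold lower and 0 higher, with 5 at 7 dpi only and 7 at neither. Cxcr4, for the receptor of CXCL12, was at 81.5 FPKM at 7 dpi and 19.5 FPKM at 21 dpi (centred log2 -2.10). The monocyte attractant gene Ccl2 was at 4.78 FPKM at 7 dpi and 1.84 FPKM at 21 dpi (centred log2 -1.11), and Ccl3 and Ccl4 at 17.6 against 11.3 FPKM, -0.68, and 15.1 against 8.26 FPKM, -0.89. Cxcl14, the most abundant, was higher, at 140.2 FPKM at 7 dpi and 232 FPKM at 21 dpi (centred log2 0.63), and Ccl5, a product of lymphocytes, stood at 10.9 FPKM at 7 dpi and 16.0 FPKM at 21 dpi. Direction therefore differed between members. The median was -1.02 with a pseudocount of 0.01 and -1.08 when centred within length classes, just past 2-fold.

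Lymphocytes, granulocytes and dendritic cells were covered thinly. Of 27 markers of T and NK cells 3 were measured (Lck, Zap70 and Ccl5), none 2-fold different, with a median of 0.43, and 21 were listed at neither time. Of 14 markers of B and plasma cells 3 were measured, with a median of -0.75 and 1 lower by 2-fold, Cd22, a gene that microglia also express, at 151 FPKM at 7 dpi and 33.0 FPKM at 21 dpi (centred log2 -2.25). For neutrophils 7 of 16 were measured, 1 lower and 1 higher by 2-fold, with a median of 0.25 that was -0.02 with a minimum of 5 FPKM. S100a8, for a calcium-binding protein of neutrophil cytosol, was at 5.28 FPKM at 7 dpi and 1.73 FPKM at 21 dpi (centred log2 -1.29), Csf3r, the most abundant, at 485 FPKM at 7 dpi and 279 FPKM at 21 dpi (centred log2 -0.89), and 7 markers were at neither time. Mmp9 had the highest value of the neutrophil list, 1.34. Of its measured genes 4 were above 0 and 3 below, so the list had no common direction. For dendritic cells 7 of 13 were measured, 1 lower by 2-fold and 0 higher, with a median of 0.05 that was -0.12 when centred within length classes, -0.09 with a minimum of 5 FPKM and -0.01 after quantile normalization. Irf8, a transcription factor gene of that lineage and of microglia, was lowest at 61.3 FPKM at 7 dpi and 23.2 FPKM at 21 dpi (centred log2 -1.45), and Flt3, for the receptor of its growth factor, had a value of 0.42.

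**Figure D3:**
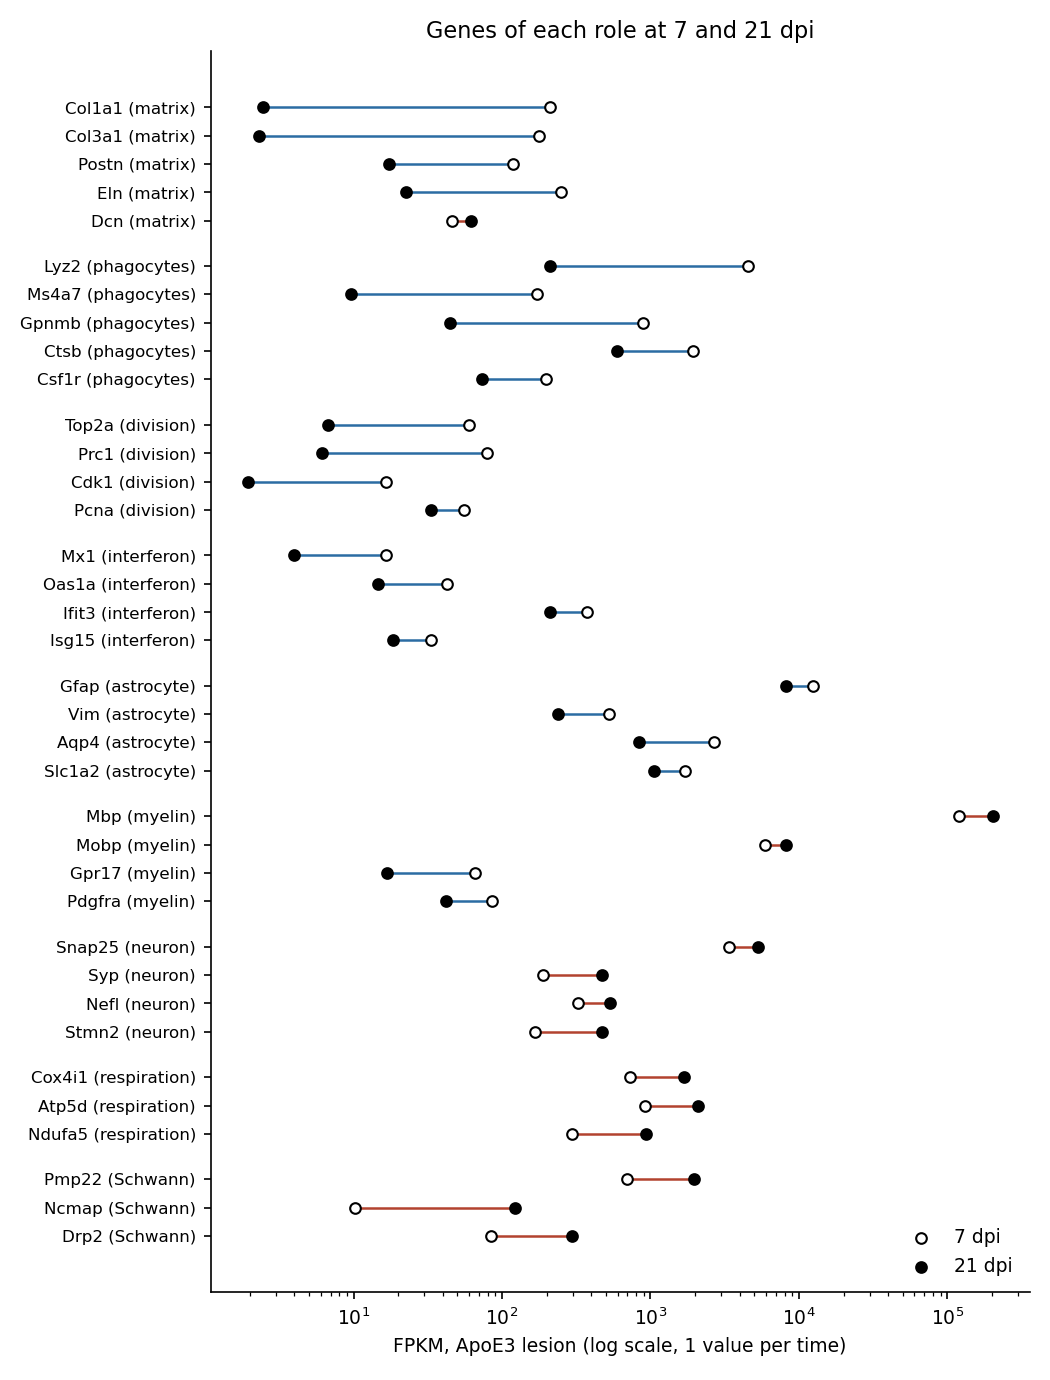
FPKM at 7 dpi (open circles) and 21 dpi (filled circles) in the ApoE3 lesion, on a log scale, for genes of each role, 1 value per time. Matrix, phagocyte, division and interferon genes stood lower at 21 dpi except Dcn, and neuronal, respiratory and Schwann cell genes stood higher.

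Genes of the type I interferon response, which restrict viruses and are switched on by interferon receptors, were lower together. Of 30, 24 were measured, every one was below 0, 14 were at least 2-fold lower and the median was -1.06, or -0.97 without centring. Another 5 were listed at 7 dpi only and 1 at 21 dpi only. Mx1, for a GTPase against influenza viruses, had the lowest value, at 16.7 FPKM at 7 dpi and 3.99 FPKM at 21 dpi (centred log2 -1.91). Ifit3, the most abundant, was at 373 FPKM at 7 dpi and 212 FPKM at 21 dpi (centred log2 -0.90), and Ifit1 and Ifit2, for related RNA-binding proteins, were at 17.9 against 9.26 FPKM, -0.97, and 50.7 against 19.4 FPKM, -1.43. Isg15, for a ubiquitin-like modifier, was at 33.3 FPKM at 7 dpi and 18.3 FPKM at 21 dpi (centred log2 -0.92). The genes with the smallest differences were Xaf1 at -0.22 and Ifitm3 at -0.34. Among those listed at 7 dpi alone, Irf7, for a factor that amplifies the signal, was at 159 FPKM.

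The promoters of these genes are shown because members of the list moved together and are known to share an element bound by interferon-activated factors. The letters GAAANNGAA were searched on both strands in windows that lie mostly before the annotated start (RefSeq, GRCm38.p6). They were found in 15 of 24 promoters of 21 genes of the list, or 62.5%, and in 8.56% of all 32851 promoters. The pair below belongs to the genes most abundant at 7 dpi that were at least 2-fold lower at 21 dpi and hold the letters, marked in capitals. Oas1a, for a synthetase of 2'-5' oligoadenylate, was at 42.5 FPKM at 7 dpi and 14.7 FPKM at 21 dpi (centred log2 -1.56) and has overlapping matches, and Cxcl10, for a T cell attractant, was at 34.2 FPKM at 7 dpi and 14.8 FPKM at 21 dpi (centred log2 -1.25) and has a single match. A match describes letters and is not evidence of binding.
Oas1a, chr5:120907476-120907775, minus strand: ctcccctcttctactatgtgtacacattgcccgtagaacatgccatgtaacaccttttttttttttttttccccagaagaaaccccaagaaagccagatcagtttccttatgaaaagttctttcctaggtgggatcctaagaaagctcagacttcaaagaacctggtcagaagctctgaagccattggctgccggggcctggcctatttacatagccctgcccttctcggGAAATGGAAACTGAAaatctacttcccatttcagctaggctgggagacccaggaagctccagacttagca
Cxcl10, chr5:92348840-92349139, minus strand: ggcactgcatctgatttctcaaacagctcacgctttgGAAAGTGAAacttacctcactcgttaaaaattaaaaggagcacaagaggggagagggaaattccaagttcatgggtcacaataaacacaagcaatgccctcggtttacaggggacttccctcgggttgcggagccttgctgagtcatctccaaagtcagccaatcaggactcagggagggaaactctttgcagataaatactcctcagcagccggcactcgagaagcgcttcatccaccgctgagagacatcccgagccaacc

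Genes of cell division were lower at 21 dpi, all 21 measured of 40. Of these 16 were at least 2-fold lower and the median was -1.57. Another 16 were listed at 7 dpi only and 3 at neither time. Top2a, for the topoisomerase that untangles chromosomes, was at 59.7 FPKM at 7 dpi and 6.76 FPKM at 21 dpi (centred log2 -3.06). Cdk1, for the kinase that starts mitosis, was at 16.5 FPKM at 7 dpi and 1.94 FPKM at 21 dpi (centred log2 -2.66), and Ccna2, for one of its cyclins, at 7.64 FPKM at 7 dpi and 1.15 FPKM at 21 dpi (centred log2 -2.09). These 3 genes were thus at a few FPKM at 21 dpi. Several genes of DNA replication had smaller differences, with Mcm3 at 24.0 FPKM at 7 dpi and 9.44 FPKM at 21 dpi (centred log2 -1.35), Pcna, for the sliding clamp, at 55.2 FPKM at 7 dpi and 33.2 FPKM at 21 dpi (centred log2 -0.81) and Rrm1, which makes deoxynucleotides, at 13.6 FPKM at 7 dpi and 10.7 FPKM at 21 dpi (centred log2 -0.41). Racgap1, the most abundant, was at 77.8 FPKM at 7 dpi and 41.2 FPKM at 21 dpi (centred log2 -0.99). Mki67, the usual marker of dividing cells, was at 29.6 FPKM at 7 dpi and had no value at 21 dpi.

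Promoters of dividing-cell genes share short elements, the CHR (TTTGAA) and CCAAT boxes. On both strands of the same windows, TTTGAA stood in 19 of 37 promoters of 34 genes of the list (51.4%) and in 17.9% of all promoters. CCAAT stood in 30 of the 37 (81.1%) and in 37.4% of all. Both shares were over 2 times those of all promoters. For cholesterol synthesis, the letters TCACNCCAC of the sterol element were in 1 of 20 promoters (5%) and in 1.24% of all. The promoters of Prc1, at 79.8 FPKM at 7 dpi and 6.14 FPKM at 21 dpi, and of Top2a are given, by the same choice as above, with both motifs in capitals; Prc1 holds each once and Top2a holds 8 matches.
Prc1, chr7:80294201-80294500, plus strand: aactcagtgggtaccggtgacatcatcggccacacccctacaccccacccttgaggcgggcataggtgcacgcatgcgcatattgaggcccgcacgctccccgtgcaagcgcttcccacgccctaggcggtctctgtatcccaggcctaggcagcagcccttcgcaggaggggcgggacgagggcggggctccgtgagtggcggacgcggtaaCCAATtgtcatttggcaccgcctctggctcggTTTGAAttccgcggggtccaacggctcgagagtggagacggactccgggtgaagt
Top2a, chr11:99024140-99024439, minus strand: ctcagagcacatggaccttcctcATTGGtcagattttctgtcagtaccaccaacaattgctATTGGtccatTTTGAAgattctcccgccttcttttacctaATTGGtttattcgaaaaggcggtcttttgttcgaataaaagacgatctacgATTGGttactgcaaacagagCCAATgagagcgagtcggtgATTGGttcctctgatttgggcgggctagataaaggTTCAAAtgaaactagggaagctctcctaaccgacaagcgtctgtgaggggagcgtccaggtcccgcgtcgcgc

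Reactive astrocyte genes had a median of -0.83. Of 25, 22 were measured, 10 were at least 2-fold lower and 0 higher, 1 was listed at 7 dpi only and 2 at neither. Gfap, by far the most abundant, had a value of -0.68. Vim, for vimentin, was at 528 FPKM at 7 dpi and 238 FPKM at 21 dpi (centred log2 -1.24), and Serpina3n, for a protease inhibitor, at 821 FPKM at 7 dpi and 605 FPKM at 21 dpi (centred log2 -0.53). Emp1 had the lowest value, -2.46, from 115 FPKM at 7 dpi and 21.6 FPKM at 21 dpi. Lcn2, for an iron-binding secreted protein, had the highest, 0.48, from 29.4 FPKM at 7 dpi and 44.2 FPKM at 21 dpi. Filament genes were therefore lower at 21 dpi, Gfap by less than 2-fold and Vim by more.

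Genes of resting astrocytes were balanced around the median gene. Of 20, 18 were measured, 1 was at least 2-fold lower, 0 higher, and the median of 0.00 was below 0 after quantile normalization (-0.09), upper-quartile centring (-0.03) and centring by length (-0.04). Aqp4, for the water channel of the endfeet, was the most abundant and the lowest, at 2689 FPKM at 7 dpi and 833 FPKM at 21 dpi (centred log2 -1.78). The glutamate transporter genes Slc1a2 and Slc1a3 were at 1712 against 1057 FPKM, -0.78, and 41.1 against 41.0 FPKM, -0.09. Kcnj10, for a potassium channel, and Gja1, for connexin 43, had values of -0.85 and -0.80. Grin2c had the highest value, 0.95, and 2 markers were listed at 21 dpi only, Aldoc among them at 3014 FPKM.

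Central myelin genes differed little relative to the median gene. Of 21, 14 were measured, none reached 2-fold in either direction and the median was 0.14, or -0.05 after quantile normalization, which is of the opposite sign. Mbp had a value of 0.65. Mog, on the outer surface of the sheath, was at 248 FPKM at 7 dpi and 255 FPKM at 21 dpi, and Mal at 301 FPKM at 7 dpi and 399 FPKM at 21 dpi (centred log2 0.32). Ppp1r14a had the highest value, 0.99, and Cldn11, for the tight-junction protein of the sheath, the lowest, -0.48. The summed level of the list was 128787 FPKM at 7 dpi and 211976 FPKM at 21 dpi, nearly all of it Mbp, and 130964 and 229860.0 FPKM over all genes listed at each time. 4 genes were listed at 7 dpi only, 2 at 21 dpi only (Cnp among them) and 1 at neither.

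Precursors of oligodendrocytes were marked by 16 measured genes of 17, 6 at least 2-fold lower and 0 higher, with a median of -0.46 and 1 listed at 7 dpi only. Gpr17, of cells about to differentiate, was the lowest at 65.9 FPKM at 7 dpi and 16.8 FPKM at 21 dpi. Pdgfra stood at -1.10, and Cspg4, for the NG2 proteoglycan, at 12.7 FPKM at 7 dpi and 10.5 FPKM at 21 dpi. The lineage factors Olig1 and Sox10 were at 139 against 161 FPKM, 0.13, and 62.8 against 77.9 FPKM, 0.22, and Bcas1, of myelinating cells, was highest at 4849 FPKM at 7 dpi and 7241 FPKM at 21 dpi (centred log2 0.49). Pdgfra and Gpr17, of an early and a committed stage, were thus lower while factors kept through the lineage were near the median.

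Neuronal genes stood above the median gene. Of 24 genes of spinal neurons 17 were measured, 3 were at least 2-fold higher, 0 lower and 14 above 0, with a median of 0.58, 5 at 7 dpi only and 2 at neither. Snap25, for a component of the vesicle-fusion complex and the most abundant, was at 3366 FPKM at 7 dpi and 5336 FPKM at 21 dpi (centred log2 0.58). The neurofilament genes Nefl, Nefm and Nefh were at 324 against 537 FPKM, 0.64, 339 against 609 FPKM, 0.76, and 167 against 301 FPKM, 0.76. Stmn2, for a microtubule regulator of axons, had the highest value, 1.41, from 167 FPKM at 7 dpi and 474 FPKM at 21 dpi. Elavl4 was lowest, at -0.46. Of these axonal genes Stmn2 alone reached 2-fold. Gad1, for the enzyme that makes GABA, at 273 FPKM at 7 dpi and 323 FPKM at 21 dpi (centred log2 0.15), and Chat, for that of acetylcholine, at 8.08 FPKM at 7 dpi and 8.16 FPKM at 21 dpi, differed less still.

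Vesicle and release genes gave a like picture. Of 23, 18 were measured, 3 were at least 2-fold higher and 0 lower, 16 were above 0, and the median was 0.60. Rab3a, for a GTPase on vesicles, was at 646 FPKM at 7 dpi and 2179 FPKM at 21 dpi (centred log2 1.66). Syp, for the vesicle protein synaptophysin, was at 188 FPKM at 7 dpi and 469 FPKM at 21 dpi (centred log2 1.22), and Vamp2, for a fusion protein, at 126 FPKM at 7 dpi and 219.9 FPKM at 21 dpi (centred log2 0.71). Unc13a, which primes vesicles, was the lowest, at 207 FPKM at 7 dpi and 206 FPKM at 21 dpi. 3 genes were listed at 7 dpi only, 1 at 21 dpi only and 1 at neither.

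Receptors for glutamate, GABA and glycine did not share it. Of 23, 14 were measured, 1 was at least 2-fold lower and 0 higher, 12 were below 0, and the median was -0.30. Glra1, for the main subunit of the adult glycine receptor, was at 54.5 FPKM at 7 dpi and 18.5 FPKM at 21 dpi (centred log2 -1.60). Gria2, for the AMPA subunit that limits calcium entry, was at 631 FPKM at 7 dpi and 501 FPKM at 21 dpi (centred log2 -0.42), and Glrb, the most abundant, at 905 FPKM at 7 dpi and 848 FPKM at 21 dpi (centred log2 -0.18). With 8 genes at 7 dpi only and Grin1, the obligatory NMDA subunit, at 21 dpi only (2249.8 FPKM), a large part of the family has no fold. Receptor transcripts are long, with a median of 3792 nt, and vesicle transcripts had 3002 nt. Centred within length classes, the medians were -0.16 for receptor genes and 0.59 for vesicle genes. The part of length in the difference between these lists was not tested.

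Regeneration-associated genes, which injured neurons switch on to regrow axons, had a median of -0.17 over 19 of 20 genes, 3 at least 2-fold lower and 2 higher, with 1 at 7 dpi only. Atf3, for a stress transcription factor, was at 32.9 FPKM at 7 dpi and 10.2 FPKM at 21 dpi (centred log2 -1.69). Sprr1a was at 109 FPKM at 7 dpi and 76.2 FPKM at 21 dpi (centred log2 -0.60), and Sox11 at 1.79 FPKM at 7 dpi and 1.21 FPKM at 21 dpi (centred log2 -0.42). Gap43, for the growth-cone protein, was at 117 FPKM at 7 dpi and 136 FPKM at 21 dpi. Stmn4, for a stathmin and the most abundant, was at 413 FPKM at 7 dpi and 792 FPKM at 21 dpi (centred log2 0.85). Stmn2, given above, had the highest value of this list, 1.41. Of the genes named here only Atf3, lower, and Stmn2, higher, reached 2-fold. The list has no common direction.

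Immediate early genes, which respond within minutes to activity or stress, had 15 measured of 20, 3 at least 2-fold lower and 1 higher, and a median of -0.48. Fos was at 14.2 FPKM at 7 dpi and 7.85 FPKM at 21 dpi (centred log2 -0.87), Jun at 38.3 FPKM at 7 dpi and 26.6 FPKM at 21 dpi (centred log2 -0.60) and Egr1 at 20.4 FPKM at 7 dpi and 10.6 FPKM at 21 dpi (centred log2 -0.96). Jund, the most abundant, was at 160.1 FPKM at 7 dpi and 312 FPKM at 21 dpi (centred log2 0.87). Egr2, which also directs myelination by Schwann cells, had the highest value, at 33.1 FPKM at 7 dpi and 73.0 FPKM at 21 dpi (centred log2 1.03). 3 genes were at 7 dpi only, 1 at 21 dpi only and 1 at neither.

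Ependymal cells line the central canal and bear motile cilia. Their marker list had 11 of 12 genes measured, 1 at least 2-fold higher, 0 lower, and a median of 0.56, with 1 at 7 dpi only. Of motile cilia genes, 21 of 29 were measured, 3 were at least 2-fold higher, 0 lower and 20 above 0, with a median of 0.60, 2 at 21 dpi only and 6 at neither. Foxj1, the master regulator of the motile cilium, was at 36.4 FPKM at 7 dpi and 45.5 FPKM at 21 dpi (centred log2 0.22). Cfap126, the most abundant ciliary gene, was at 45.0 FPKM at 7 dpi and 76.9 FPKM at 21 dpi (centred log2 0.67), Rsph1, of the radial spoke, at 7.71 FPKM at 7 dpi and 16.7 FPKM at 21 dpi (centred log2 0.93), and Ccdc153 at 8.58 FPKM at 7 dpi and 42.8 FPKM at 21 dpi. Meig1 was the lowest, at 16.7 FPKM at 7 dpi and 17.7 FPKM at 21 dpi. Vtn, for vitronectin, led the ependymal list in level at 36.4 FPKM at 7 dpi and 57.5 FPKM at 21 dpi (centred log2 0.56). Most ciliary genes were thus above 0 by less than 2-fold.

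Endothelial genes were near the median gene. Of 21, 15 were measured, 1 was at least 2-fold higher, 0 lower, and the median was 0.10, with 5 at 7 dpi only and 1 at neither. Cdh5, for the cadherin of endothelial junctions, was at 20.6 FPKM at 7 dpi and 12.8 FPKM at 21 dpi (centred log2 -0.73), and Kdr, for the main receptor of vascular endothelial growth factor, at 15.4 FPKM at 7 dpi and 9.01 FPKM at 21 dpi (centred log2 -0.80). Cldn5, for the claudin of the barrier, was at 55.0 FPKM at 7 dpi and 69.3 FPKM at 21 dpi (centred log2 0.24), and the barrier transporter gene Slco1a4, the most abundant, at 162 FPKM at 7 dpi and 218 FPKM at 21 dpi (centred log2 0.34). Vwf, for von Willebrand factor, had the highest value, at 21.6 FPKM at 7 dpi and 50.8 FPKM at 21 dpi (centred log2 1.11). The receptor and the cadherin thus stood below the median gene, and the claudin and the transporter above it.

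Subunits of oxidative phosphorylation that the nucleus encodes were higher as a body. Of 74, 57 were measured, all of them were above 0, 36 were at least 2-fold higher and the median was 1.04, with 16 listed at 7 dpi only and 1 at neither. The summed level was 11393 FPKM at 7 dpi and 24597 FPKM at 21 dpi, or 19560.2 FPKM at 7 dpi with the genes listed then only. Atp5d, of ATP synthase and the most abundant, was at 917 FPKM at 7 dpi and 2088 FPKM at 21 dpi (centred log2 1.10). Cox4i1, of cytochrome oxidase, was at 728 FPKM at 7 dpi and 1687 FPKM at 21 dpi (centred log2 1.12), and Ndufa5, of complex I, had the highest value, at 298 FPKM at 7 dpi and 937 FPKM at 21 dpi (centred log2 1.56). Sdhd, of complex II, was the lowest, at 76.9 FPKM at 7 dpi and 95.5 FPKM at 21 dpi (centred log2 0.22). The list's median was 0.92 after quantile normalization and 0.83 when centred within length classes, below 2-fold in both.

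Cytosolic ribosomal protein genes had few calls. Of 81, 52 were measured, 47 were above 0, 1 was at least 2-fold higher, 0 lower, and the median was 0.40, with 21 at 7 dpi only and 8 at neither. Rplp1, of the stalk and the most abundant, was at 1245 FPKM at 7 dpi and 1869 FPKM at 21 dpi (centred log2 0.50), Rpl38 was the highest at 73.1 FPKM at 7 dpi and 176 FPKM at 21 dpi (centred log2 1.17) and Rps27l, a relative of Rps27, the lowest at -0.45. Centred within length classes, the median was 0.20. Many ribosomal genes have processed copies elsewhere in the genome, so the split of their reads is uncertain.

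Length went along with the difference across all members. Transcript length was the median over the protein-coding transcripts of a gene in the mouse annotation (GENCODE vM21), and 10272 members had it. Genes of up to 1000 nt had a median of 0.25, those of 1000 to 2000 nt 0.17, those of 2000 to 3000 nt 0.00, those of 3000 to 4000 nt -0.13, those of 4000 to 6000 nt -0.27 and longer ones -0.39. The median was thus lower with each step in length. At least 2-fold higher were 9.69% of the shortest class and 0.524% of the longest, while 7.36% and 10.5% were lower. In ApoE4 the shortest class had a median of 0.19 and the longest -0.34, from the same runs. The measured respiratory genes had a median of 645 nt and the ribosomal genes 713 nt. The matrix genes, with 3575 nt, had a median of -2.16 when centred by length. The paper's methods give a common minimum of RNA integrity and a common library protocol for the samples, and a lower alignment rate for a single replicate. Whether RNA quality or library preparation differed between the times was not tested here.

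**Figure D4:**
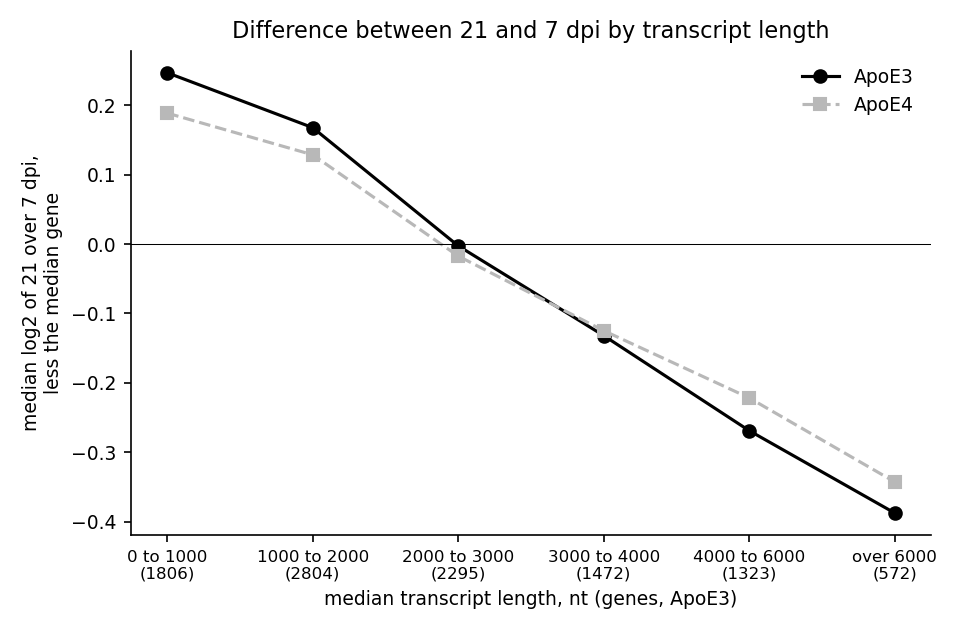
Median centred log2 of 21 over 7 dpi for genes grouped by median transcript length, with the number of ApoE3 members under each class. In ApoE3 (black) the medians run from 0.25 for the shortest to -0.39 for the longest class, and ApoE4 (grey) has a like slope.

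Sugar breakdown and hypoxia genes had a median of 0.40 over 17 of 25, with 1 at least 2-fold lower, 0 higher and 13 above 0, 4 at 7 dpi only, 2 at 21 dpi only and 2 at neither. Aldoa, for aldolase and the most abundant, was at 4912 FPKM at 7 dpi and 8397 FPKM at 21 dpi (centred log2 0.68), and Pkm, for pyruvate kinase, at 2232 FPKM at 7 dpi and 4339.5 FPKM at 21 dpi (centred log2 0.87). Slc2a1, for the glucose transporter of the barrier, was at 107 FPKM at 7 dpi and 181 FPKM at 21 dpi (centred log2 0.66). Hk2, for a hexokinase, had a value of -0.59, and Slc16a3, for a lactate exporter of macrophages and other glycolytic cells, was the lowest at 36.3 FPKM at 7 dpi and 10.9 FPKM at 21 dpi (centred log2 -1.74). Of the list, the exporter gene alone reached 2-fold.

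Chaperones of the endoplasmic reticulum, which fold secreted proteins such as collagen, had a median of -0.44 over 16 of 20 genes, 1 at least 2-fold lower and 0 higher, with 4 at 7 dpi only. Hspa5, for the central chaperone BiP, was at 249 FPKM at 7 dpi and 168 FPKM at 21 dpi (centred log2 -0.65), Pdia4, for a disulfide isomerase, at 82.6 FPKM at 7 dpi and 47.5 FPKM at 21 dpi (centred log2 -0.88), and Canx, for calnexin and the most abundant, at 569 FPKM at 7 dpi and 429 FPKM at 21 dpi (centred log2 -0.50). Sdf2l1 had the lowest value, -1.05, and Syvn1 the highest, 0.42. The differences were smaller than those of the matrix genes.

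Clock genes had a median of 0.33 over 16 of 18 genes, 2 at least 2-fold higher and 0 lower, with 2 at 7 dpi only. The output gene Dbp was at 62.8 FPKM at 7 dpi and 195 FPKM at 21 dpi (centred log2 1.53) and the repressor gene Ciart at 16.1 FPKM at 7 dpi and 49.3 FPKM at 21 dpi (centred log2 1.47). Arntl and Clock, for the activators, were at 60.1 against 51.1 FPKM, -0.32, and 128 against 76.6 FPKM, -0.82. Tef, the most abundant, was at 387 FPKM at 7 dpi and 601 FPKM at 21 dpi (centred log2 0.54). Activators and outputs thus lay on opposite sides of the median gene. The hour at which tissue was taken was not used here, and its part in these values was not tested.

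Along the axis of the cord, Hox genes of groups 6 to 9 mark the thoracic level, and 9 of 12 were measured, 4 at least 2-fold higher and 0 lower, with a median of 0.88 and 3 at 7 dpi only. Hoxb8, the most abundant, was at 241 FPKM at 7 dpi and 559.8 FPKM at 21 dpi (centred log2 1.12), Hoxd9 was highest at 3.78 FPKM at 7 dpi and 12.6 FPKM at 21 dpi (centred log2 1.42), and Hoxc6 lowest at 49.7 FPKM at 7 dpi and 39.2 FPKM at 21 dpi (centred log2 -0.42). Of the lumbar and sacral groups 10 to 13, 1 of 12 was measured, Hoxc10 at 7.19 FPKM at 7 dpi and 27.7 FPKM at 21 dpi (centred log2 1.72). At 21 dpi only 6 more were listed, Hoxd10 the highest at 20.8 FPKM, and at 7 dpi only Hoxa10 at 8.07 FPKM. More genes of the caudal groups were thus listed at the later time, some of them weakly, with Hoxc13 at 1.17 FPKM. Over all 14715 symbols listed at either time, 593 were at 21 dpi only, with a median of 2.04 FPKM, and 3246 at 7 dpi only. Whether the segments were taken from a like level was not tested.

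Markers of peripheral glia gave the highest median of the lists with 5 measured members or more, 1.55. Of 16, 8 were measured, 6 were at least 2-fold higher and 0 lower, 7 were listed at 21 dpi only and 1 at neither. Summed over the genes listed at each time, the level was 858 FPKM at 7 dpi and 3408 FPKM at 21 dpi. Pmp22, for a protein of compact peripheral myelin and the most abundant, was at 693 FPKM at 7 dpi and 1970.0 FPKM at 21 dpi (centred log2 1.42). Drp2, of the Schwann cell surface, was at 83.9 FPKM at 7 dpi and 294 FPKM at 21 dpi (centred log2 1.71), and Ngfr, for the receptor of immature and denervated Schwann cells, at 1.66 FPKM at 7 dpi and 8.09 FPKM at 21 dpi (centred log2 1.68). Cdh19 was lowest at 33.0 FPKM at 7 dpi and 28.7 FPKM at 21 dpi (centred log2 -0.29). No marker was at 0 at either time. At 21 dpi only, Cldn19 was at 18.6 FPKM, Dhh at 15.8 FPKM and Pmp2 at 2.74 FPKM. Schwann cells enter cord lesions and also lie in the attached nerve roots, and the part of root tissue in these values was not tested.

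The other tissues that can adhere to a dissected segment were read in the same way. Sensory ganglion genes had 9 measured of 23, 4 at least 2-fold higher and 0 lower, a median of 0.94, 10 listed at 21 dpi only, 1 at 7 dpi only and 3 at neither. The summed level of the measured genes was 539 FPKM at 7 dpi and 977 FPKM at 21 dpi, and that of all genes listed at each time 645 and 1106 FPKM. Calca, for the peptide CGRP, which motor neurons also make, was the most abundant at 377 FPKM at 7 dpi and 702 FPKM at 21 dpi (centred log2 0.81). Tac1, for substance P, was at 23.8 FPKM at 7 dpi and 78.8 FPKM at 21 dpi (centred log2 1.60), and Pou4f1 was highest at 8.38 FPKM at 7 dpi and 32.1 FPKM at 21 dpi (centred log2 1.73). The sodium channel gene Scn10a, a defining marker of nociceptors, was listed at 21 dpi only, at 20.1 FPKM, and Avil at 39.1 FPKM. The median reached 1.03 without centring, 1.06 after quantile normalization and 1.12 with a pseudocount of 0.1, past 2-fold in each. The part of ganglion tissue in the neuronal values was not tested.

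Skeletal muscle genes had 10 measured of 22, 3 at least 2-fold lower and 1 higher, and a median of -0.42, which was 0.04, of the opposite sign, with a minimum of 5 FPKM. The summed level of the measured genes was 144 FPKM at 7 dpi and 159 FPKM at 21 dpi. Over all genes listed at each time it was 247 and 159.8 FPKM, of which Pvalb, a gene that neurons also express, made up 98.3 FPKM at 7 dpi, where alone it was listed. Tnni1, of slow fibres, was the most abundant at 37.3 FPKM at 7 dpi and 55.8 FPKM at 21 dpi (centred log2 0.48), and Tnnt3, of fast fibres, was at 45.7 FPKM at 7 dpi and 22.5 FPKM at 21 dpi (centred log2 -1.08). The alpha-actin gene Acta1 was at 5.30 FPKM at 7 dpi and 2.11 FPKM at 21 dpi (centred log2 -1.11). Myh4, for the fastest myosin, was listed at 21 dpi only, at 0 FPKM. 2 genes were at 7 dpi only, 3 at 21 dpi only and 6 at neither, and 1, Tnnc2, fell under the minimum.

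Liver genes were hardly covered at both times, with 2 measured of 27, 1 lower and 1 higher by 2-fold and a median of -0.11. Rbp4, for retinol-binding protein, was at 2.61 FPKM at 7 dpi and 11.9 FPKM at 21 dpi (centred log2 1.74), and Hp, for haptoglobin, which macrophages also make, at 4.11 FPKM at 7 dpi and 0.386 FPKM at 21 dpi (centred log2 -1.97). 17 were listed at 21 dpi only and 4 of these (Ambp, Fabp1, Mup3 and Mup20) were at 0, Alb was at 0.0931 FPKM, and 7 were at neither time. Itih3, which the cord also expresses, was listed at 7 dpi only, at 252 FPKM and made up most of the 7 dpi sum of 259 FPKM over listed genes, against 24.3 FPKM at 21 dpi. The measured genes summed to 6.72 and 12.2 FPKM.

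Erythrocyte genes had 5 measured of 13, 4 at least 2-fold higher and 0 lower, with a median of 1.33, 2 at 7 dpi only and 6 at neither. Hba-a1, for alpha globin, was the most abundant at 146 FPKM at 7 dpi and 458 FPKM at 21 dpi (centred log2 1.55), and Hbb-bt, for a beta globin, at 67.7 FPKM at 7 dpi and 182 FPKM at 21 dpi (centred log2 1.33). Summed, the measured genes were at 562 FPKM at 7 dpi and 1361 FPKM at 21 dpi, with 747 FPKM at 7 dpi when genes listed then only are added, and near-identical globin copies can share reads. The beta globin gene Hbb-bs, at 146 FPKM at 7 dpi, has no value at 21 dpi.

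Bone and cartilage genes had 7 measured of 19, 2 at least 2-fold lower and 0 higher, with a median of -0.20, 3 at 7 dpi only, 2 at 21 dpi only and 7 at neither, and a summed level of the measured genes of 443 FPKM against 259 FPKM. Both lower ones, Acp5 and Ctsk, are macrophage genes as well. Col11a2 was the most abundant at 126 FPKM at 7 dpi and 166 FPKM at 21 dpi (centred log2 0.31), and the osteoblast gene Sp7 was at 3.47 FPKM at 7 dpi and 3.69 FPKM at 21 dpi. Of 13 adipocyte genes 3 were measured, with a median of -0.64, 1 lower and 0 higher by 2-fold. The lower one was Fabp4, for a fatty-acid carrier also of macrophages, at 41.6 FPKM at 7 dpi and 3.29 FPKM at 21 dpi (centred log2 -3.40) and the most abundant of the list. 3 adipocyte genes were at 21 dpi only, Cfd among them at 0 FPKM, and 7, Adipoq among them, at neither. Summed, the measured adipocyte genes were at 45.6 FPKM at 7 dpi and 7.48 FPKM at 21 dpi, or 75.1 FPKM at 21 dpi with Plin4, which was listed at that time only, at 67.6 FPKM, and the others of its kind. The part of these tissues in the results was not tested.

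Of 11 genes that RT-qPCR or immunofluorescence panels covered, 9 were measured here, 3 at least 2-fold higher, 1 lower, with a median of 0.13 that was -0.04 when centred within length classes. Aif1, for the microglial protein IBA1, was at 274 FPKM at 7 dpi and 166 FPKM at 21 dpi (centred log2 -0.81), and Tgm2, for a cross-linking transglutaminase, at 32.5 FPKM at 7 dpi and 14.8 FPKM at 21 dpi (centred log2 -1.17). Ndor1, for an oxidoreductase, was at 450.4 FPKM at 7 dpi and 421 FPKM at 21 dpi. Ppia, for cyclophilin A, was at 251 FPKM at 7 dpi and 547 FPKM at 21 dpi (centred log2 1.03). Gfap, Gap43, Mmp9, Snap25 and Syp are given above. Nrp1 was listed at 7 dpi only, at 133 FPKM, and 1 gene, Slc6a3, at neither.

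Reference genes that assays use for scaling had 11 measured of 16, with a median of -0.10, or 0.01 after quantile normalization, 2 at 7 dpi only and 3 at neither. They did not share a direction. Ppia was the highest, between 0.86 and 1.12 over the scalings tried, and Hprt was between 0.43 and 0.69. Actb, for cytoplasmic actin, was at 3555 FPKM at 7 dpi and 2412 FPKM at 21 dpi and between -0.89 and -0.56, and Polr2a, for the large subunit of RNA polymerase II, between -0.78 and -0.36. Ywhaz and Tbp changed sign with the scaling, and Tfrc stayed just below 0 in each. A level set relative to Ppia would thus differ from one set relative to Actb by over 2-fold between these times.

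The same computation in the ApoE4 lesion, whose mice were other animals but whose values came from the same 2 runs, had 10862 genes. Its uncentred median was 0.53, against 0.09 in ApoE3, and the differences are given relative to it. At least 2-fold higher were 554 genes (5.10%) and lower 982 (9.04%). Over the 10820 genes in both, the centred values had a Pearson r of 0.848 and a Spearman rho of 0.838 across genes, which are not independent replicates and share the runs. In ApoE4, 680 of the genes called lower in ApoE3 (73.8%) and 279 of the higher ones (58.0%) were called in the same direction. They make up 69.3% and 50.7% of the genes called in ApoE4 among the 10820 in both. Opposite calls were rare, 4 genes higher in ApoE3 and lower in ApoE4 and 2 the reverse. Differences between the genotypes were not tested.

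For most lists the medians of both genotypes lay close together, for example -1.47 and -1.53 for lysosomal genes and 1.04 and 0.92 for respiratory subunits. ApoE3 had the median nearer 0 for fibroblast markers (-1.12 and -3.12), for the scar matrix (-2.32 and -3.15) and for MHC class II (-0.64 and -1.49). Dcn, a gene of the first and the second of these lists, was higher at 21 dpi in ApoE3 but stood at 56.6 FPKM at 7 dpi and 9.37 FPKM at 21 dpi in ApoE4. ApoE3 had the median further from 0 for the interferon genes, -1.06 against -0.05, with 14 of 24 genes 2-fold lower in ApoE3 and 2 of 24 in ApoE4. For Ifit3 the values at 7 and 21 dpi were 373 and 212 FPKM in ApoE3, and 160.4 and 403 FPKM in ApoE4.

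**Figure D5:**
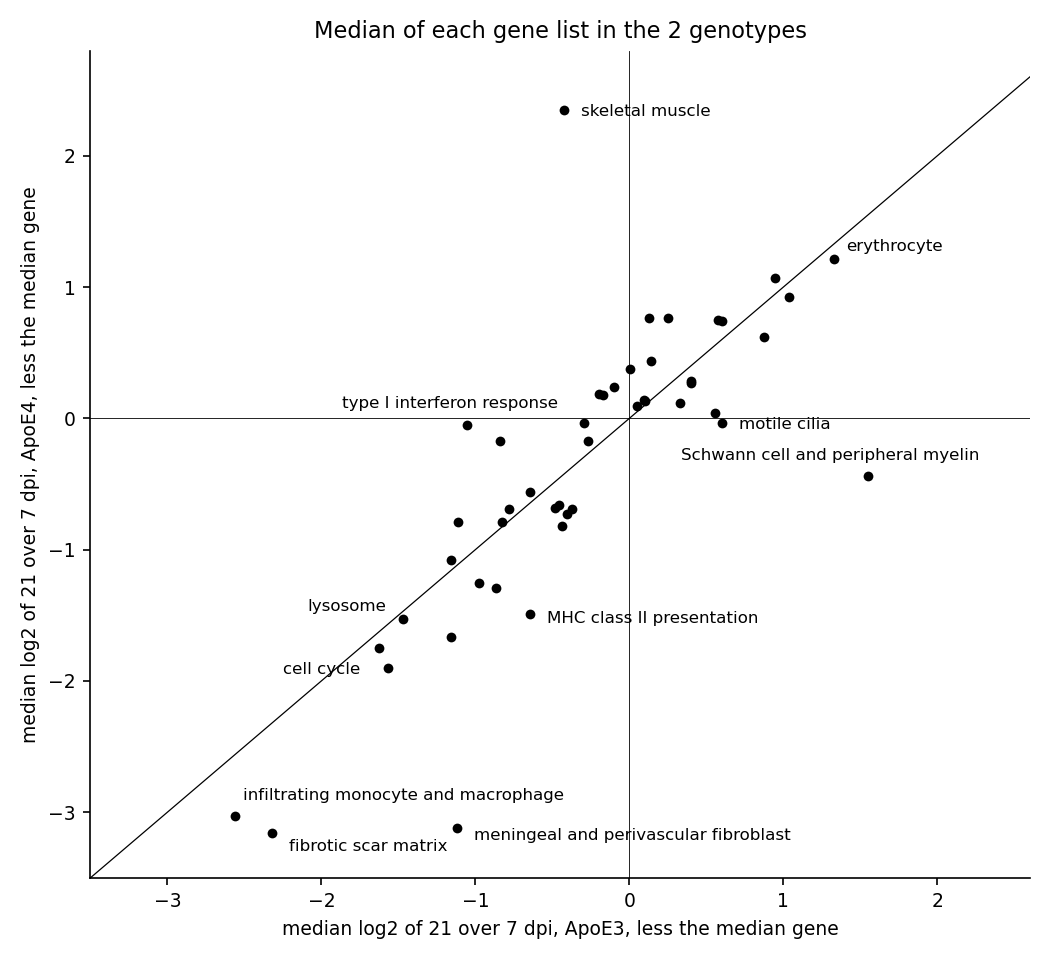
Median centred log2 of 21 over 7 dpi of each gene list in ApoE3 (horizontal) and ApoE4 (vertical), for lists with at least 5 measured genes in both, with the line of equal values. Schwann cell genes (1.55 and -0.44) and skeletal muscle genes (-0.42 and 2.35) lie far from the line, as do fibroblast markers (-1.12 and -3.12).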

How the data were processed

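The authors deposited FPKM plus 1, with 1 value per gene, genotype and time, from reads down-sampled to equal depth. The submitters' notes name STAR 2.5.4b, Bowtie2 2.1.10, SAMtools 0.1.7 and Cuffdiff 1.3.0, and the genome build is not given in the sources used here. In the same table the authors deposited a p-value, a q-value and a fold or ratio, as well as a log2 fold change, for the genotypes within each time, which were not used, and a second table of their selected genes was not used either. Number of value columns without a group: 0.

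Here 1 was subtracted, 3 symbols on more than 1 line were left out, 14639 of 14715 symbols were matched to RefSeq names, and the log2 ratio with a pseudocount of 1 was centred on its median. A difference of at least 2-fold was called. Members and lists were chosen with earlier results of these data known. Named genes are the 15 highest and 15 lowest protein-coding genes whose mean reached 5 FPKM, in each list the most abundant, highest and lowest gene and the first 5 measured, and the panel genes. A few genes under this rule were left out of the text and are not reported here, and some further list genes, such as Postn and Csf1r, were picked with the values in view.

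Alternatives tried: a pseudocount of 0.1 or 0.01, no minimum FPKM or one of 5, no centring, upper-quartile centring, quantile normalization, columns read by number, folds of 1.5 and 4, and counts without the lists of other tissues or without Rn, Rnu, Snor, Mir, Gm and Rik symbols. Centring within classes of transcript length was added after seeing the data. The computation was tested on simulated data. Python 3.11.15, numpy 2.4.6, pandas 2.3.3 and matplotlib 3.10.9 were used.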

Additional observations from a re-analysis of the deposited data

Results flagged for a closer look

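For 3 of the lists with at least 5 measured genes in both genotypes, the medians of ApoE3 and ApoE4 had opposite signs and differed by at least 0.5 in log2. The median of Schwann cell genes was 1.55 in ApoE3 and -0.44 in ApoE4, a difference of 1.99. That of skeletal muscle genes was -0.42, or 0.04 with a minimum of 5 FPKM, and 2.35 in ApoE4, a difference of -2.77 from the first, and that of motile cilia genes was 0.60 and -0.04, a difference of 0.64. With 1 value per group, whether these differences exceed the spread between mice was not tested.

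Single genes had opposite calls in the genotypes, by their centred log2. The muscle gene Tnnt3 had -1.08 in ApoE3 and 3.71 in ApoE4, a difference of -4.79, and Acta1 was at 2.11 FPKM at 21 dpi in ApoE3 and 59.0 FPKM in ApoE4, with a difference of -4.11 in the centred log2. At 7 and 21 dpi, Slc36a2, for an amino acid transporter, was at 7.55 and 21.3 FPKM in ApoE3, while its centred log2 was -2.72 in ApoE4, a difference of 4.02. Igfbp6, for a binding protein of insulin-like growth factors, was at 6.35 and 16.5 FPKM and 7.22 and 3.24 FPKM, a difference of 2.65. The transcript 1700020N01Rik was at 0.856 and 3.85 FPKM and 1.76 and 0.495 FPKM, a difference of 2.71. The difference between the genotypes was not tested for any of them. These last 3 genes were chosen after their values were seen.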

How the results depend on the processing

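The counts of 481 higher and 921 lower genes stayed within 1.5 times of themselves with other pseudocounts, minima, scalings and columns, and without the lists of other tissues or the small RNA and predicted symbols, except that centring within length classes, chosen after seeing the data, gave 302 higher genes. A fold of at least 1.5 gave 1759 higher and 2041 lower genes, and a fold of at least 4 gave 13 and 168, because the threshold itself was moved.

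Over the 47 lists and 9 alternatives, 391 medians kept their direction or lay under 2-fold as before and moved by less than 1.5-fold. Reading the columns by number, which gives the ApoE4 values, reversed the Schwann cell median to -0.44, lowered the scar matrix to -3.15, and took the interferon median to -0.0486 and the respiratory median to 0.92. Without centring the interferon median was -0.97. The respiratory median was 0.92 after quantile normalization and 0.83 when centred by length. The cause was not tested.

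Of the 322 genes named by rule and reported, a called gene changed sign in 12 cases, all when the columns were read by number: Plekha4 (-0.80), Serpina3m (-0.98), Tmem79 (-0.16), Ccdc33 (-0.0458), Fxyd3 (-0.0713), Egr2 (-0.68), Drp2 (-0.11), Vwf (-0.30), Ifit2 (0.0409), Acta1 (3.00), Tnni2 (0.90) and Tnnt3 (3.71). The cause was not tested. Another 56 values dropped below 2-fold, 88 passed it and 59 moved by at least 1.5-fold without either.

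The values limit what can be said, since 1 value per group gives no spread, the reads per gene are unknown, and 3246 genes at 7 dpi and 593 at 21 dpi have no counterpart. Upper-quartile centring subtracted 0.126 in place of 0.0888. Genes under 5 FPKM or without a length have no value in the alternatives that need them. No paired analysis was possible because each group has 1 value.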

Other observations

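Values at a single time add to the picture without a fold. At 7 dpi only, 3161 of 3246 genes had at least 1 FPKM, among them Ncam1, for a neural adhesion molecule, at 3429.6 FPKM and Eef1a1, for a translation factor, at 2504 FPKM. At 21 dpi only, 430 of 593 genes had it, among them the hexokinase gene Hk1 at 859.5 FPKM and the endosomal GTPase gene Rab7 at 884 FPKM. These were chosen after their values were seen.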
